A study of Danio rerio with 6 samples.

Results

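Opsins are the light-absorbing receptors of photoreceptors, and 9 genes of the cone and pineal opsins were followed in whole zebrafish larvae. The members were chosen by symbol in the deposited gene table: opn1sw1, opn1sw2, opn1mw1, opn1mw2, opn1mw3, opn1mw4, opn1lw1, opn1lw2 and exorh. The table holds 12 entries under these 9 symbols, of which 9 had reads and 8 passed the filter on low counts, among 16776 genes tested in all. The libraries came from whole larvae at 5 days post fertilization (dpf), with 3 libraries of tlr2-/- larvae and 3 of tlr2+/+ larvae. The tlr2-/- larvae are homozygous for the ENU-induced sa19423 allele of tlr2, the gene of a Toll-like receptor that senses bacterial lipopeptides, in a line outcrossed to ABTL fish. The tlr2+/+ larvae are the homozygous wild type controls of that line, and neither genotype was challenged. Each library holds larvae of a single cross and the genotypes had separate parents, so a difference between parents cannot be told apart from the mutation.

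An opsin is a G protein-coupled receptor that holds a retinal chromophore, and the opsin a photoreceptor makes sets the wavelengths it absorbs best. In the zebrafish retina separate cones make the UV opsin opn1sw1, the blue opsin opn1sw2, green opsins of the opn1mw group and red opsins of the opn1lw group. Larval vision rests mainly on cones, since rods mature later. Exorh is made by photoreceptors of the pineal organ, which drives melatonin synthesis at night. In the RefSeq annotation of the GRCz12tu assembly, used here for gene order alone, the green opsin genes opn1mw1 to opn1mw4 are direct neighbours with 0 protein-coding genes between them. The blue gene opn1sw2 is likewise followed by opn1lw1 and opn1lw2, and tlr2 lies on other chromosomes than exorh, opn1sw1, opn1sw2, opn1mw1 and opn1lw2.

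The libraries held 17849673 to 24083656 reads in tlr2-/- larvae and 19818632 to 33372850 in tlr2+/+ larvae. At least 10 reads were assigned to 15542 to 17133 genes in the tlr2-/- libraries, and to 12950, 11909 and 19202 genes in tlr2+/+ replicates 1, 2 and 3. Counts relative to library size (CPM) were scaled with TMM factors, which were 0.789 to 0.966 in the tlr2-/- libraries and 0.983, 0.913 and 1.59 in tlr2+/+ replicates 1, 2 and 3. The part of these differences between libraries in the opsin values was not tested, and they are given beside the values they touch. The 2 entries of tlr2 had no read in any library, so tlr2 itself cannot check the labels. TPM values, transcript abundances relative to the whole library, correct for transcript length, so levels of different genes are compared on this scale. The exact permutation test over libraries is two-sided, and 3 libraries against 3 allow no p below 0.1.

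The pineal opsin was higher in every tlr2-/- library than in any tlr2+/+ library, while no cone opsin was. The level of exorh (ENSDARG00000111860) was 23.1, 21.9 and 27.3 TPM in tlr2-/- larvae, against 16.9, 13.9 and 14.8 TPM in tlr2+/+ larvae. The means were 24.1 ± 2.87 TPM and 15.2 ± 1.54 TPM (SD, n = 3 each), a ratio of 1.59, and tlr2-/- and tlr2+/+ libraries did not overlap (exact permutation test, p = 0.1). On the CPM scale, exorh had 30.2, 36.8 and 40 CPM in tlr2-/- larvae, against 21, 19.6 and 10 CPM in tlr2+/+ larvae. The lowest value belonged to tlr2+/+ replicate 3, the library with the TMM factor of 1.59. The log2 fold change of exorh was 1.08 (SE 0.418, 95% interval 0.17 to 1.98), with an unadjusted p of 0.0231 and an adjusted p of 0.9998 from edgeR's quasi-likelihood test over all genes, so exorh did not pass. Without tlr2+/+ replicate 3 it was 0.82 (adjusted p = 0.2597), and with that replicate as the only wild type library it was 1.99 (adjusted p = 0.00909), a fit that takes the spread of the mutant libraries for the lone one. As a share of the summed TPM of cone opsins and exorh, which does not depend on how a library is scaled, exorh took 0.912%, 0.981% and 0.814% in tlr2-/- larvae, against 0.471%, 0.462% and 0.256% in tlr2+/+ larvae, again with no overlap. That sum is nearly all cone opsin, with a ratio of mean TPM of 0.653, so lower cone opsin TPM also raises the share of exorh. Among 21079 genes ranked by mean TPM, exorh stood at rank 1714 in tlr2-/- larvae and at rank 3219 in tlr2+/+ larvae. A rank also depends on the other genes, whose median log2 difference on the TPM scale was -0.29. In whole larvae, more cells of a type and more RNA per cell cannot be told apart.

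**Figure D1:**
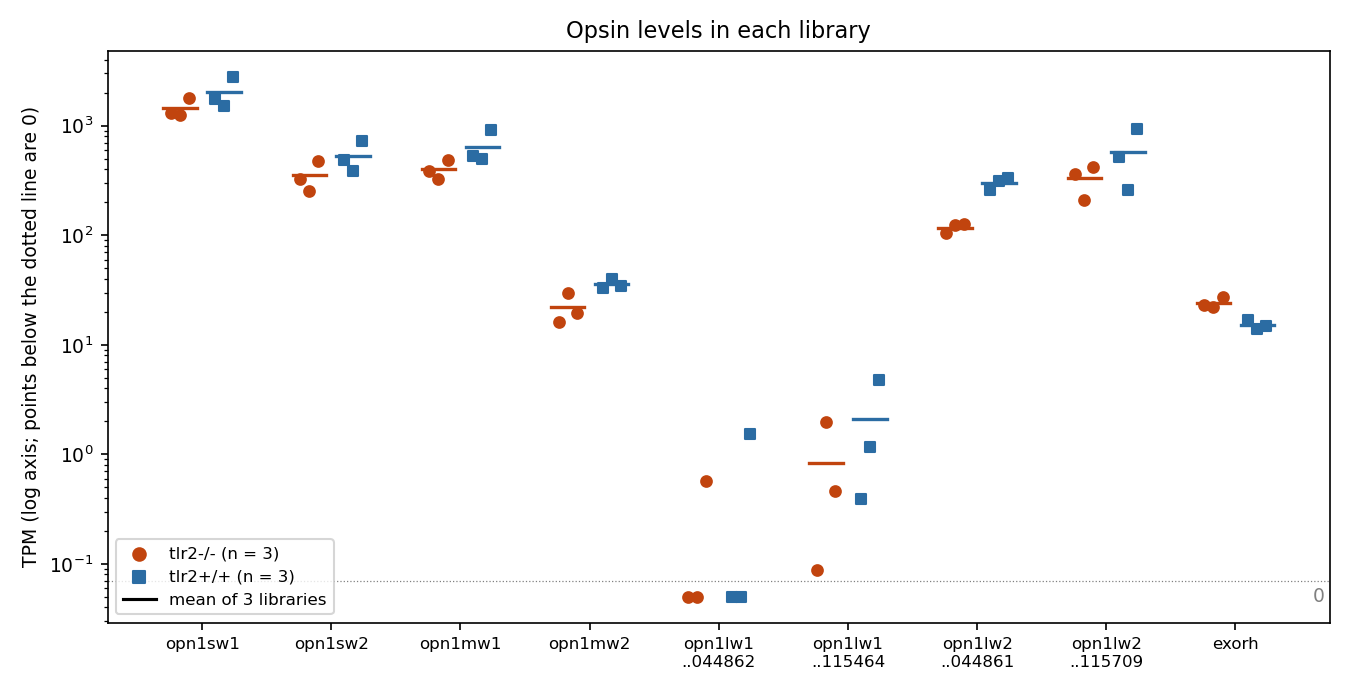
Level of each opsin entry with reads, in TPM on a log axis, with 1 point per library (circles, tlr2-/-, squares, tlr2+/+) and a line at the mean of 3 libraries, drawn only where each library had reads. The exorh points of tlr2-/- larvae lie above those of tlr2+/+ larvae, and those of opn1mw1, opn1mw2 and opn1lw2 ENSDARG00000044861 lie below them.

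The short-wavelength cone opsins overlapped between the genotypes on both scales. The UV opsin opn1sw1 (ENSDARG00000045677) was the most abundant cone opsin, with 1310, 1260 and 1790 TPM in tlr2-/- larvae, against 1750, 1500 and 2800 TPM in tlr2+/+ larvae. In CPM it had 2480, 3030 and 3760 in tlr2-/- larvae, against 3060, 2990 and 2840 in tlr2+/+ larvae, which is a log2 fold change of 0.06 (95% interval -0.75 to 0.87). The TPM ratio of means of opn1sw1 was 0.721, so the sign depends on the scale. The blue opsin opn1sw2 (ENSDARG00000017274) had 325, 255 and 477 TPM in tlr2-/- larvae, against 482, 385 and 725 TPM in tlr2+/+ larvae. Its log2 fold change on the CPM scale was -0.09 (95% interval -0.86 to 0.68). For both genes the highest TPM in either genotype was that of replicate 3. A further entry of opn1sw2 (ENSDARG00000115330) had no read in any library.

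Of the green opsins, opn1mw1 carried nearly all of the reads. The level of opn1mw1 (ENSDARG00000097008) was 390, 327 and 490 TPM in tlr2-/- larvae, against 524, 492 and 915 TPM in tlr2+/+ larvae, with no overlap (exact permutation test, p = 0.1). After TMM scaling the values overlapped, with 616, 653 and 848 CPM in tlr2-/- larvae, against 761, 818 and 785 CPM in tlr2+/+ larvae. The log2 fold change of opn1mw1 was -0.16 (SE 0.344, 95% interval -0.9 to 0.59). The neighbouring gene opn1mw2 (ENSDARG00000044280) was at least 10.9-fold lower than opn1mw1 in each library, with 16.2, 29.9 and 19.7 TPM in tlr2-/- larvae, against 32.9, 39.9 and 34.7 TPM in tlr2+/+ larvae. It too did not overlap on the TPM scale and overlapped on the CPM scale, with a log2 fold change of -0.26 (SE 0.428).

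The last copies of the green array had no reads. Opn1mw3 (ENSDARG00000044279) and opn1mw4 (ENSDARG00000000638) were at 0 in all 6 libraries, and a count of 0 allows up to 3 counts, which is 0.0566 to 0.183 CPM per library for counting error only. In zebrafish these copies are known from the outer part of the retina at later stages. The ratio of opn1mw1 to the other green opsins was 24.2, 10.9 and 24.9 in tlr2-/- larvae and 16, 12.3 and 26.4 in tlr2+/+ larvae (exact permutation test, p = 1). Copies of this array are similar in sequence, and the way the estimated counts divide shared reads among them is uncertain, so they were also summed. The sum of the green opsins had a log2 fold change of -0.17 (95% interval -0.91 to 0.58).

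The red opsins were the cone group with the lowest ratio of mean TPM, 0.513 of tlr2-/- over tlr2+/+ larvae, against 0.625 for green, 0.664 for blue and 0.721 for UV. Opn1lw2, the red copy that larval cones are known to make first, is listed as a pair of entries that both had reads. The entry ENSDARG00000044861 had 104, 123 and 126 TPM in tlr2-/- larvae, against 259, 314 and 333 TPM in tlr2+/+ larvae, with a TPM ratio of means of 0.389. Its CPM values did not overlap either, with 186, 276 and 244 in tlr2-/- larvae, against 430, 591 and 313 in tlr2+/+ larvae. The log2 fold change of this entry was -0.92 (SE 0.37, 95% interval -1.72 to -0.12, unadjusted p = 0.0281, adjusted p = 0.9998 from edgeR), so it did not pass.

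The other entry of opn1lw2 (ENSDARG00000115709) overlapped between the genotypes on both scales. It had 360, 211 and 424 TPM in tlr2-/- larvae, against 517, 261 and 941 TPM in tlr2+/+ larvae, and a log2 fold change of -0.2 (95% interval -1.02 to 0.62). Its single transcript has 1071 bases, a multiple of 3, and the main transcript of ENSDARG00000044861 has 1642 bases. Of the opn1lw2 reads, ENSDARG00000044861 took 32.5%, 48.7% and 32.4% in tlr2-/- larvae, against 44.6%, 66.1% and 37.4% in tlr2+/+ larvae. These shares overlapped between the genotypes and were uneven among libraries. Whether they come from reads of 1 gene split between both entries was not checked, so the difference of a single entry is uncertain. The summed red opsins had 464, 335 and 551 TPM in tlr2-/- larvae, against 776, 576 and 1280 TPM in tlr2+/+ larvae. In CPM the sum was 573, 569 and 756 in tlr2-/- larvae, against 966, 895 and 841 in tlr2+/+ larvae. Neither scale overlapped, beside 6.2% of all genes lower without overlap in CPM and 12.9% in TPM. The log2 fold change of the sum was -0.51 (SE 0.345, 95% interval -1.26 to 0.24, unadjusted p = 0.164, adjusted p = 0.9999 from edgeR), so it did not pass.

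Opn1lw1, the red copy known from older retina, was low and uneven among libraries. Its entry ENSDARG00000115464 had 2, 51 and 9 reads in tlr2-/- larvae, against 12, 24 and 140.4 reads in tlr2+/+ larvae, and a log2 fold change of -0.39 with an interval of -4.81 to 4.02. Its entry ENSDARG00000044862 had 0, 0 and 19 reads in tlr2-/- larvae, against 0, 0 and 78.7 reads in tlr2+/+ larvae, and did not pass the filter. No difference in opn1lw1 could be told from counts this uneven among libraries. Within a library the ratio of opn1lw1 to opn1lw2 was 0.000187 to 0.00591 in tlr2-/- larvae and 0.000507 to 0.00495 in tlr2+/+ larvae.

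In order of mean TPM of single entries, the tlr2-/- larvae had opn1sw1 first with 1450 ± 295, opn1mw1 with 403 ± 82.4 and opn1sw2 with 352 ± 113. The entries of opn1lw2 followed with 332 ± 110 and 118 ± 11.4, then exorh with 24.1 ± 2.87 and opn1mw2 with 21.9 ± 7.15 TPM (SD, n = 3 each). The steps from opn1mw1 to opn1sw2, to the more abundant opn1lw2 entry, and from exorh to opn1mw2 were smaller than the spread of the libraries. In tlr2+/+ larvae the order was opn1sw1 with 2020 ± 687, opn1mw1 with 644 ± 235 and the more abundant opn1lw2 entry with 573 ± 344 TPM. Opn1sw2 with 531 ± 175, the other opn1lw2 entry with 302 ± 38.5, opn1mw2 with 35.8 ± 3.65 and exorh with 15.2 ± 1.54 TPM completed it. There the ranges of opn1mw1, opn1sw2 and the more abundant opn1lw2 entry overlapped. Compared within a library, however, opn1mw1 was above opn1sw2 in each library of both genotypes. It was above the more abundant opn1lw2 entry in each library but tlr2+/+ replicate 3, with 915 against 941 TPM there. Exorh and opn1mw2 overlapped in tlr2-/- larvae, while opn1mw2 was the higher of the pair in each tlr2+/+ library. Summed by group, the red opsins averaged 450 ± 108 TPM and the green opsins 424 ± 78.2 TPM in tlr2-/- larvae. In tlr2+/+ larvae the red opsins averaged 878 ± 363 TPM and the green opsins 679 ± 234 TPM. These differences were smaller than the SD of the red opsins. Within a library, the red sum was above the green sum in each library but tlr2-/- replicate 2. The order of single entries is thus not that of the groups, since opn1lw2 has a pair of entries.

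The summed cone opsins were at 2500, 2210 and 3330 TPM in tlr2-/- larvae, against 3570, 2990 and 5750 TPM in tlr2+/+ larvae (exact permutation test, p = 0.2). After TMM scaling they were at 4150, 4770 and 6130 CPM in tlr2-/- larvae, against 5460, 5340 and 5040 CPM in tlr2+/+ larvae, with a log2 fold change of -0.07 (95% interval -0.9 to 0.76). The size of the cone opsin difference thus depended on the scale, with a ratio of mean TPM of 0.653 and a fold of 0.95 after TMM scaling.

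Because libraries differ in scaling, the make-up of the cone opsin mRNA was compared within each library. The UV opsin made up 52.3%, 57.1% and 53.8% of the cone opsin TPM in tlr2-/- larvae, against 49.1%, 50.2% and 48.6% in tlr2+/+ larvae. The red opsins made up 18.5%, 15.2% and 16.5% in tlr2-/- larvae, against 21.8%, 19.2% and 22.3% in tlr2+/+ larvae. Neither of these overlapped, while the blue and green shares did. The shares were not tested, and only the ratios were planned as comparisons within a library. Shares of 1 sum are tied to each other, so a larger share of one group lowers the rest. The ratio of red to green was 1.14, 0.94 and 1.08 in tlr2-/- larvae, against 1.39, 1.08 and 1.35 in tlr2+/+ larvae (exact permutation test, p = 0.2, adjusted p = 0.6 over 4 ratios). With estimated counts in place of TPM, its log2 difference was -0.34 (exact permutation test, p = 0.1). In CPM the red sum lay below the green sum in each tlr2-/- library, with 573, 569 and 756 against 643, 716 and 884. It lay above the green sum in each tlr2+/+ library, with 966, 895 and 841 against 811, 888 and 816. Whether the genotypes overlapped in this ratio thus depended on the scale. The ratio of UV to blue was 4.03, 4.94 and 3.76 in tlr2-/- larvae and 3.63, 3.9 and 3.86 in tlr2+/+ larvae (exact permutation test, p = 0.3, adjusted p = 0.6).

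**Figure D2:**
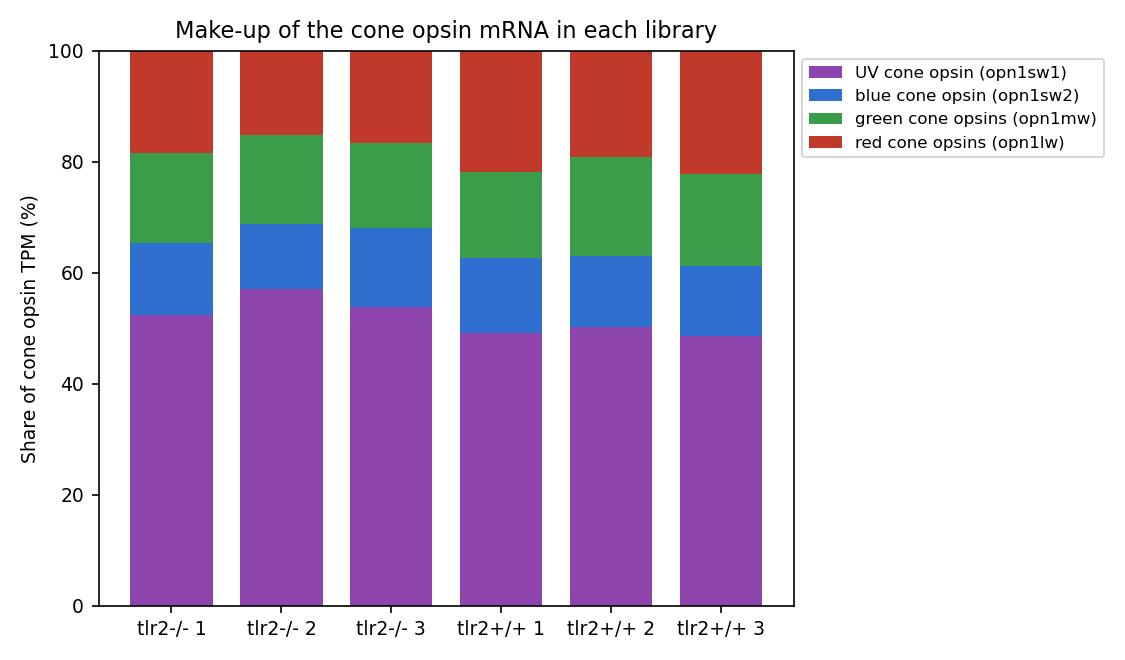
Make-up of the cone opsin TPM of each library in percent, stacked by opsin group, with the tlr2-/- libraries left of the tlr2+/+ libraries. The UV opsin takes 52.3% to 57.1% in tlr2-/- larvae against 48.6% to 50.2% in tlr2+/+ larvae, and the red opsins take 15.2% to 18.5% against 19.2% to 22.3%. The shares were not tested.

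**Figure D3:**
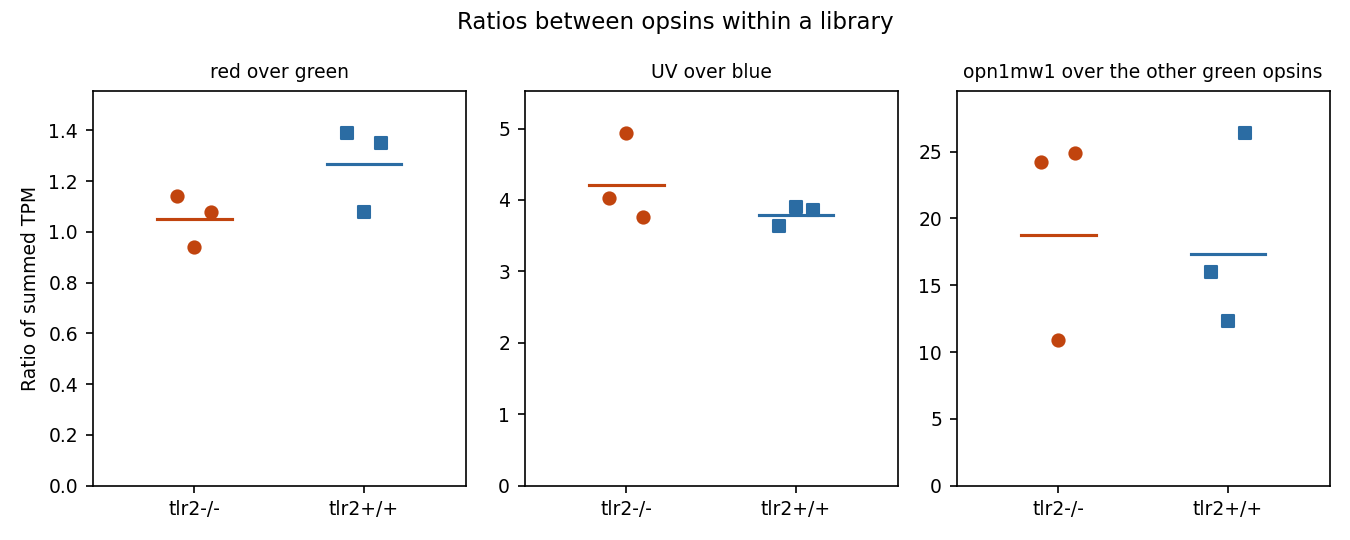
Ratios of summed TPM within each library, with 1 point per library and a line at the geometric mean of 3 libraries (circles, tlr2-/-, squares, tlr2+/+), on linear axes that start at 0. The ratio of red to green is 0.94 to 1.14 in tlr2-/- larvae and 1.08 to 1.39 in tlr2+/+ larvae, and all 3 ratios drawn overlap between the genotypes.

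None of the 8 tested entries passed an adjusted p under 0.05 from edgeR, beside 0.00596% of all 16776 genes (1 gene). At an unadjusted p under 0.05 there were 2 entries, beside 3.73% of all genes, of which 1 was higher (exorh), beside 1.73%, and 1 was lower (opn1lw2 ENSDARG00000044861), beside 1.99%. There were 0 such entries without tlr2-/- replicate 3, 1 without tlr2-/- replicate 1 or 2 or without tlr2+/+ replicate 1 or 2, 2 without tlr2+/+ replicate 3, and 1 with the entries of a symbol summed. With all libraries, exorh and that opn1lw2 entry were those with no overlap between genotypes in CPM, 1 higher beside 6.87% of genes and 1 lower beside 6.2% (13.1% in either direction). In TPM, 1 was higher beside 2.53% of genes, and 3 were lower (opn1mw1, opn1mw2 and opn1lw2 ENSDARG00000044861) beside 12.9%. Genes as a whole lay lower in tlr2-/- larvae on the TPM scale, where the median log2 difference of all genes was -0.29, against 0.02 with TMM scaling. Relative to that median, exorh with 0.63 from limma-trend on log2(TPM + 1) lay on the opposite side, and opn1lw2 ENSDARG00000044861 with -1.35 lay further down. The median log2 fold change of the 8 entries in CPM was -0.18.

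The transduction genes that work beside the opsins were compared in the same fit. A light-activated opsin signals through transducin and a phosphodiesterase and is shut off by arrestin. Of 24 tested entries of the rod list 0 passed and 0 had an unadjusted p under 0.05. Their median log2 fold change was 0.24, but -0.21 without tlr2-/- replicate 3, -0.11 without tlr2+/+ replicate 2 and -0.18 with limma-trend on TPM. The rod arrestin sagb had 153, 198 and 262 CPM in tlr2-/- larvae, against 180, 161 and 158 CPM in tlr2+/+ larvae (log2 fold change 0.30, SE 0.341). Prph2b, which encodes a structural protein of outer segment discs, averaged 158 ± 40.9 CPM in tlr2-/- larvae and 199 ± 17.3 CPM in tlr2+/+ larvae (SD, n = 3 each). The G protein beta subunits gnb1a and gnb1b had log2 fold changes of 0.44 and 0.39, and all 4 of these genes overlapped between the genotypes. The RNA is of whole larvae, so genes of this list need not be read from rods. The rod transducin alpha subunit gnat1, a defining gene of rods, had 21.5, 15.2 and 35.9 CPM in tlr2-/- larvae, against 17.5, 32.9 and 62.6 CPM in tlr2+/+ larvae. It was named after its values were seen, and its log2 fold change was -0.64 (SE 0.499, unadjusted p = 0.224).

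Of 25 tested entries of the cone list, 0 passed and 2 were higher at an unadjusted p under 0.05, beside 1.73% of all genes, with a median log2 fold change of 0.54. The cone arrestin arr3a (ENSDARG00000056511) had 297, 409 and 423 CPM in tlr2-/- larvae, against 169, 178 and 213 CPM in tlr2+/+ larvae. Its log2 fold change was 1.01 (SE 0.341, unadjusted p = 0.011, adjusted p = 0.9998 from edgeR). The inhibitory subunit of the cone phosphodiesterase, pde6ha, had 621, 1210 and 620 CPM in tlr2-/- larvae, against 460, 236 and 298 CPM in tlr2+/+ larvae (log2 fold change 1.31, SE 0.418, unadjusted p = 0.00826, adjusted p = 0.9998). Gngt2b, the gamma subunit of cone transducin, averaged 1260 ± 272 CPM in tlr2-/- larvae and 792 ± 206 CPM in tlr2+/+ larvae (SD, n = 3 each), with no overlap. Arr3a, pde6ha and gngt2b were thus higher in each tlr2-/- library than in any tlr2+/+ library on the CPM scale, as were 4 entries of the list in all, beside 6.87% of all genes. The authors' paper already reports arr3a and pde6ha as higher, and the list was chosen with earlier results of these data known. Its counts are thus no independent support. The cone transducin alpha subunit gnat2 was uneven among libraries, with 263, 184 and 523 CPM in tlr2-/- larvae, against 108, 96.5 and 461 CPM in tlr2+/+ larvae, where replicates 1 and 2 are the libraries with the fewest genes detected. The median of the cone list was 1.21 without tlr2+/+ replicate 3 and -0.37 with it as the only wild type library. On the TPM scale the median was 0.22 with limma-trend. All joined entries of the list summed to 4820, 5680 and 5140 TPM in tlr2-/- larvae, against 4090, 3020 and 5650 TPM in tlr2+/+ larvae, which overlap.

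**Figure D4:**
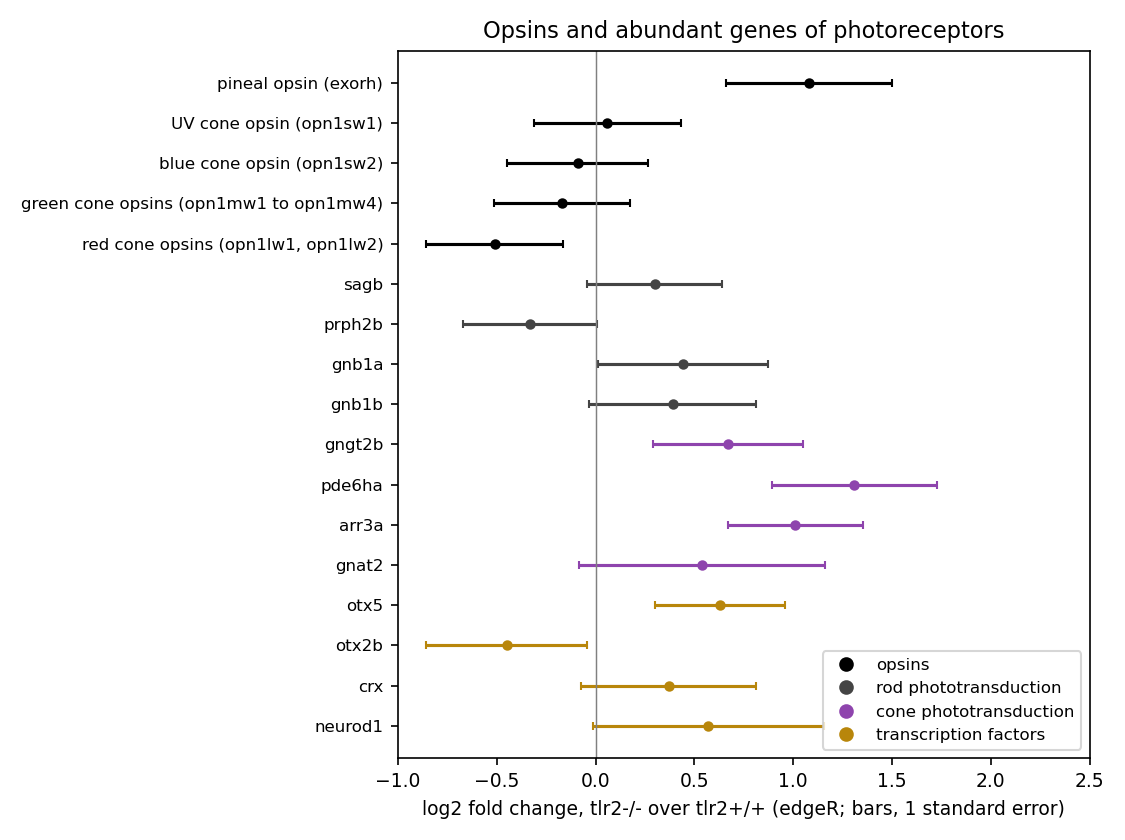
Log2 fold change of tlr2-/- over tlr2+/+ larvae from edgeR on TMM-scaled counts, with bars of 1 standard error, for the opsins and the 4 most abundant entries of the rod, cone and transcription factor lists. Exorh (1.08), pde6ha (1.31) and arr3a (1.01) lie furthest to the right and the red opsins (-0.51) furthest to the left, and none passed the adjusted threshold.

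Transcription factors known from photoreceptors and the pineal organ gave 0 of 20 entries past either threshold, with a median log2 fold change of 0.63. Otx5, known to act on pineal gene expression in zebrafish, had 73.6, 86.3 and 102 CPM in tlr2-/- larvae, against 58.2, 64.6 and 46.8 CPM in tlr2+/+ larvae, with no overlap (log2 fold change 0.63, SE 0.328, unadjusted p = 0.0787 from edgeR). It was the 1 entry of 20 that was higher without overlap, beside 6.87% of all genes, and 1 was lower, beside 6.2%. Crx, which activates photoreceptor genes, averaged 42.8 ± 8.38 CPM in tlr2-/- larvae and 33.1 ± 20.3 CPM in tlr2+/+ larvae (SD, n = 3 each). Otx2b had a log2 fold change of -0.45 and neurod1 of 0.57, and both overlapped between the genotypes.

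The melatonin pathway of the pineal organ was too low to set beside exorh. Of its 7 tested entries 0 passed and 0 had an unadjusted p under 0.05, with a median log2 fold change of -0.82 that was 0.07 without tlr2+/+ replicate 2. Aanat2, the enzyme that times melatonin synthesis in the zebrafish pineal organ, had 1.33, 0.421 and 2.68 CPM in tlr2-/- larvae, against 3.59, 0 and 4.24 CPM in tlr2+/+ larvae. Asmt, the last enzyme of the pathway, averaged 2.33 ± 1.36 CPM in tlr2-/- larvae and 3.57 ± 2.6 CPM in tlr2+/+ larvae (SD, n = 3 each). Tph1a and ddc, which act earlier in the pathway, averaged 2.1 ± 0.468 and 5.62 ± 1.97 CPM in tlr2-/- larvae, against 0.538 ± 0.665 and 2.6 ± 4.33 CPM in tlr2+/+ larvae. Tph1a was the 1 entry of 7 that was higher without overlap, beside 6.87% of all genes, and 0 were lower, beside 6.2%.

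Genes of the visual cycle, which regenerates the chromophore, and of the retinal pigment epithelium gave 0 of 25 entries past the adjusted threshold and 1 higher at an unadjusted p under 0.05, beside 1.73% of all genes. That gene was rbp4l, a relative of the retinol carrier rbp4, with 797, 1410 and 849 CPM in tlr2-/- larvae, against 558, 500 and 288 CPM in tlr2+/+ larvae (log2 fold change 1.18, SE 0.404, unadjusted p = 0.012, adjusted p = 0.9998 from edgeR). The authors' paper already reports rbp4l as higher, and this list too was chosen with earlier results known. Rpe65a, the isomerase of the pigment epithelium, had 53.2, 78.6 and 17 CPM in tlr2-/- larvae, against 127, 138 and 22 CPM in tlr2+/+ larvae, and replicate 3 was the lowest in both genotypes. Rbp3, which carries retinoids between photoreceptors and the pigment epithelium, averaged 67.3 ± 7.24 CPM in tlr2-/- larvae and 108 ± 46.9 CPM in tlr2+/+ larvae (SD, n = 3 each). Rbp4, the plasma retinol carrier, had a log2 fold change of 0.35, and the list median was -0.48, but 0.16 with the entries of a symbol summed.

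Lists of genes chosen for the lens, the inner retina and neurons were read beside the opsins. The RNA is of whole larvae, so these genes need not be read from the eye. Nor does a list show which cells of the retina make a gene, and this holds for lrit1b too. All joined entries of the lens list, mostly crystallins and including those too low to test, summed to 9440, 11400 and 3200 CPM in tlr2-/- larvae. They summed to 17800, 10400 and 2320 CPM in tlr2+/+ larvae, so replicate 3 was the lowest in both genotypes. Of 17 entries of the inner retina list, 3 were higher at an unadjusted p under 0.05, beside 1.73% of all genes, and 0 passed. The authors' paper already reports lrit1b, tfap2e and a further gene of the list as higher, and the list was chosen with earlier results of these data known. This count is thus no independent support. All joined entries of the inner retina list summed to 633 to 847 CPM in tlr2-/- larvae and 576 to 789 CPM in tlr2+/+ larvae. Of the 3 higher entries, lrit1b had 206, 324 and 238 CPM in tlr2-/- larvae, against 152, 95.4 and 63.2 CPM in tlr2+/+ larvae (log2 fold change 1.30, unadjusted p = 0.00612 from edgeR). Tfap2e averaged 95.7 ± 4.74 CPM in tlr2-/- larvae and 49.9 ± 12.3 CPM in tlr2+/+ larvae (SD, n = 3 each, log2 fold change 0.94, unadjusted p = 0.0151). Glula, a glutamine synthetase known from Müller glia, lay lower instead. It averaged 211 ± 50.4 CPM in tlr2-/- larvae and 328 ± 67.1 CPM in tlr2+/+ larvae (SD, n = 3 each), with no overlap, beside 6.2% of all genes that were lower without overlap. The 14 neuronal entries had a median log2 fold change of 0.06, which was -0.07 to 0.68 when each library was left out, with 0 at an unadjusted p under 0.05, and sums of 1100 to 1470 CPM in tlr2-/- larvae and 801 to 1630 CPM in tlr2+/+ larvae.

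Over the 6 libraries, the 5 other genes nearest to the mean profile of the 8 tested entries were flad1, mpz, lrrc4bb, slc35g2a and rs1a, out of 5792 genes with a mean of at least 10 CPM. The distance is the root mean square difference of centred log2 CPM, and it was 0.0688 for flad1, 0.0881 for mpz, 0.123 for lrrc4bb, 0.129 for slc35g2a and 0.141 for rs1a. Flad1 encodes an enzyme of FAD synthesis, mpz a myelin protein and rs1a retinoschisin, which photoreceptors secrete. Their log2 fold changes lay between -0.28 for rs1a and 0.05 for lrrc4bb. The entries averaged in this profile differ from each other, since the centred log2 CPM of tlr2+/+ replicate 3 was -1.24 for exorh, -0.08 for opn1sw1 and 0.08 for opn1mw1. The opn1lw1 entry, low and uneven among libraries, varied most, from -2.42 in tlr2-/- replicate 1 to 1.62 in tlr2-/- replicate 2. It weighs as much as any other entry, so the mean profile and the genes nearest to it partly follow its uneven counts.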

How the data were processed

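RNA of whole larvae was read at 150 nt. Estimated counts of 57192 transcripts per library were deposited by the authors from Salmon 1.2.1 and GRCz11, together with TPM values of that run. A deposited gene table, which the authors made with DESeq2 1.24.0, gives each gene's mean signal, which served only to join transcripts to genes. Its shrunken fold changes and s-values were not used. A gene was joined to up to 40 neighbouring transcripts whose normalized counts give its mean within 1e-12. In all, 21079 of the 23956 expressed genes were joined, covering 99.91% or more of every library's reads, and 4 ambiguous matches were left out. Salmon's options and the annotation release were not given in the sources used here. No entry was merged in the main comparison.

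Counts were summed per gene, rounded, filtered with edgeR 4.0.16 (filterByExpr), scaled by TMM and fitted by genotype alone with the robust quasi-likelihood method. Genes passed at a Benjamini-Hochberg adjusted p under 0.05 over 16776 genes. Standard errors were taken from the log2 fold change over the root of its F value. SD is over 3 libraries. Opsin families were also summed before the fit, and ratios of TPM were compared with the exact permutation test. A further member of the set is not reported here. The members and the 9 gene lists were chosen with earlier results of these data known. Genes named are all members reported, at most the 4 entries of each list with the highest mean CPM, and the 5 other genes nearest to the mean profile of the tested members, with a mean of at least 10 CPM. Gnat1, tmtops2a, p4hb and vmp1 fall outside this rule and were named after their values were seen. The fit was repeated with DESeq2 1.42.0, RLE scaling, a mean CPM of at least 1, no filter, limma-trend (limma 3.58.1) on log2(TPM + 1) for genes with a mean of at least 0.5 TPM, length offsets, the replicate number as a block, summed entries of a symbol, leaving out each library, tlr2+/+ replicate 3 alone and, for ratios, counts in place of TPM or 1 TPM added. Software was Python 3.11.15 with matplotlib 3.10.9, pandas 2.3.3 and numpy 2.4.6, and R 4.3.3 (random seed 7).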

Additional observations from a re-analysis of the deposited data

How the results depend on the processing

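Of the alternative values, 312 stayed within the limits set for a change, which for a tested difference were its sign and side of the threshold, for a count 1.5 times and for a list median the spread between libraries. A list median could thus change sign within that spread. Of the rest, 22 changed sign, 29 moved by more, 11 were weaker or fewer and 15 stronger or more. The log2 fold change of exorh was 0.63 to 1.14 under the alternatives that kept all 6 libraries. Leaving out each library gave 0.82 to 1.34 for exorh, and it did not pass. With tlr2+/+ replicate 3 as the only wild type library, exorh at 1.99 passed, so that 1 entry was called, as were 758 genes. That fit takes the spread of the mutant libraries for the lone one. The number of genes called was 3 with no filter, 0 with a mean CPM of at least 1, 39 with DESeq2, 7 with limma-trend on TPM, 0 with the entries of a symbol summed, and 0 to 5 when each library was left out. The median of all genes moved to -0.29 with limma-trend on TPM, 0.33 with the replicate block, 0.12 with DESeq2, 0.21 without tlr2+/+ replicate 3 and 0.15 without tlr2+/+ replicate 1. The cause of the changes listed here was not tested.

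The cone opsins changed sign under several settings, each with an adjusted p far above the threshold. Opn1sw1 was -0.44 with limma-trend on TPM. With tlr2+/+ replicate 3 alone, opn1sw2 was 0.16, opn1mw1 0.01, opn1mw2 0.59, the green sum 0.04 and the sum of all cone opsins 0.16. When each library was left out, opn1sw1 was -0.11 to 0.19, opn1sw2 -0.36 to 0.06, opn1mw2 -0.69 to 0.04, opn1lw1 ENSDARG00000115464 -2.18 to 0.37, opn1lw2 ENSDARG00000115709 -0.43 to 0.05 and the sum of all cone opsins -0.25 to 0.04. The log2 ratio of opn1lw1 to opn1lw2 was 0.33 with 1 TPM added to each sum and -1.53 to 0.96 when each library was left out, and that of opn1mw1 to the other green opsins was -0.13 to 0.5.

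List medians moved as follows. With tlr2+/+ replicate 3 alone they were -0.57 for rods, -0.37 for cones, -0.1 for transcription factors, -0.39 for the visual cycle, -0.56 for melatonin, 0.48 for non-visual opsins, 2.13 for the lens and -0.43 for the inner retina. With limma-trend on TPM they were -0.18 for rods, -0.24 for neurons, 0.12 for transcription factors, -0.59 for the visual cycle, -0.27 for non-visual opsins and -0.29 for the inner retina. The visual cycle was 0.16 with summed entries, and non-visual opsins were 0.29 with no filter and 0.38 with DESeq2. When each library was left out, the ranges were -0.21 to 0.77 for rods, -0.7 to 0.59 for the lens, -0.07 to 0.68 for neurons, 0.14 to 1.21 for cones, -0.66 to -0.04 for the visual cycle, -1.04 to 0.07 for melatonin, -0.07 to 0.77 for non-visual opsins and -0.14 to 0.76 for the inner retina.

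The correlations of same-numbered libraries were 0.00184, 0.0438 and 0.0566, and not every library correlated best with its own number. They were taken after each genotype was centred on its own mean, which ties them to each other. Whether the replicate numbers pair the samples thus cannot be decided from them. The replicate block called 64 genes and no opsin, with exorh at 1.14. List medians under the block were 1.09 for transcription factors, -0.49 for melatonin, 0.46 for non-visual opsins and 0.36 for the inner retina. The common biological coefficient of variation was 1.05 over all genes and is not that of the opsins. The log2 standard errors of the tested opsin entries were 0.344 to 0.428, apart from 2.04 for opn1lw1. With 3 libraries a genotype, small differences cannot be called, and the absence of a call for an opsin does not show equal levels.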

Other observations

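Opsins outside the visual set were read in the same libraries. Of 32 symbols for non-visual opsins, such as melanopsins and the retinal G protein-coupled receptors, 11 entries were tested, 0 passed, and 1 was lower at an unadjusted p under 0.05, beside 1.99% of all genes, with a median log2 fold change of -0.02. That gene, tmtops2a, was named after its values were seen, and had 0.459, 0.842 and 1.22 CPM in tlr2-/- larvae, against 5.13, 12.9 and 2.15 CPM in tlr2+/+ larvae (log2 fold change -3, SE 1.27, unadjusted p = 0.0351 from edgeR). Rgrb, a photoisomerase of the visual cycle, was the most abundant and averaged 77.2 ± 41.8 CPM in tlr2-/- larvae and 64.3 ± 46.5 CPM in tlr2+/+ larvae (SD, n = 3 each). Its relative rgra averaged 22.5 ± 4.06 CPM in tlr2-/- larvae and 22.8 ± 13.4 CPM in tlr2+/+ larvae. The melanopsin opn4.1 averaged 12.5 ± 4.4 and 13.1 ± 10.1 CPM in tlr2-/- and tlr2+/+ larvae, and opn6a 7.05 ± 1.87 and 10.3 ± 4.5 CPM. In the lens list, 0 of 17 entries had an unadjusted p under 0.05, with a median log2 fold change of -0.22 that was 0.59 without tlr2+/+ replicate 1 and 0.19 without tlr2-/- replicate 3, and crybb1l2, crybb1, cryba4 and crygn2 were its most abundant genes.

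Profiles nearest to the mean of the cone opsin entries alone were looked up after the values were seen. Over the 6 libraries these genes were p4hb, rs1a, mpz, vmp1 and flad1, at root mean square distances of 0.109 to 0.155 in centred log2 CPM. The log2 fold change of p4hb, a disulfide isomerase gene, was -0.45. The mean of the cone opsin entries also includes the opn1lw1 entry, which was low and uneven among libraries. These distances describe 6 libraries that share their scaling.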
